A study of Homo sapiens with 6 samples.

Results

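MYC binding was described at 5 genes, SNX5, MGME1, CCDC47, DDX42 and FOXK1, at the 3 windows that hold the strongest MYC places in the human medulloblastoma line ONS76. SNX5, MGME1, CCDC47 and DDX42 start within their places, while FOXK1 starts about 40 kb from its place and was not shown to be the nearest gene. The genes were chosen by measured values, since their places have the highest fold enrichment in the deposited MYC peak lists. Members were the peaks with a summit in 3 windows of the hg19 genome, chr20:17940000-17960000 for SNX5 and MGME1, chr17:61841000-61861000 for CCDC47 and DDX42, and chr7:4660000-4730000 for the region upstream of FOXK1. These windows held 19 of the 59006 peaks of the series, of which 6 were in replicate 1, 6 in replicate 2 and 7 in replicate 3. Chromatin immunoprecipitation followed by sequencing (ChIP-seq) was performed with the MYC antibody Y69 in 3 libraries and with normal IgG in another 3. The labels give all samples an inducible SOX2 genotype, whereas the study's methods for ChIP-seq name the line as ONS76 alone, and which applies was not settled here. The labels name no treatment, and the IgG libraries are not analysed here as samples. Because fold enrichment chose the members, it is given as a description with no test.

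MYC is a transcription factor that forms a dimer with MAX through its helix-loop-helix leucine zipper and prefers the sequence CACGTG, the canonical E-box. It is often found near the starts of active genes. SNX5 encodes a sorting nexin that works in the return of cargo from endosomes to the trans-Golgi network, and MGME1 encodes an exonuclease that maintains mitochondrial DNA. CCDC47 encodes a membrane protein of the endoplasmic reticulum that helps to insert multi-pass membrane proteins. DDX42 encodes a DEAD-box RNA helicase associated with the splicing machinery, and FOXK1 encodes a forkhead transcription factor that controls genes of metabolism and autophagy.

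Peaks that shared 1 bp or more across replicates were joined, which gave 8 places in the windows. A peak from all 3 replicates was present at 5 of them, from 2 replicates at 1 and from a single replicate at 2. Over the whole series 45.0% of the 27801 places had a peak in all 3 replicates, and since the strongest place of each window was chosen among these, nothing is read from the difference. The lists differed in depth, with a lowest background of 7.79, 5.84 and 4.76 fragments in replicates 1, 2 and 3, called the genome-wide level here. Median fold enrichment of a whole list was 4.15, 4.49 and 4.78.

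The place at SNX5 and MGME1 ran from 17948391 to 17950781 on chromosome 20. Its fold enrichment, the fragments at the summit plus 1 over the local background plus 1, was 56.0 in replicate 1, 54.6 in replicate 2 and 64.9 in replicate 3 (mean 58.5 ± 5.57, SD, n = 3). All 3 values stood at least 12.2 times above the median of their own list. The summit held 1173, 668 and 645 fragments, with exact Poisson 95% intervals of 1107 to 1242, 618 to 721 and 596 to 697 that cover counting error only. In each replicate this peak had the lowest p-value of its list.

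The SNX5 and MGME1 genes are read in opposite directions from neighbouring starts. For both starts only a single shared and approximate hg19 position was available, near 17949600, and its error is not known. The merged place reached 1209 bp to the SNX5 side and 1181 bp to the MGME1 side of that position, and the peak covered it in 3 of 3 replicates. Summits were at 17949290, 17949307 and 17949304, about 300 bp to the SNX5 side of that position, and the 3 summits spanned 17 bp. By its summit the signal thus lay to the SNX5 side of this approximate position, but the midpoint of the peak lay on average 93.3 bp to the other side. The RefSeq starts of both genes are 224 bp apart in hg38, so the side of each start on which the midpoint lies cannot be told. Across all 12499 places found in 3 replicates, the summits spanned a median of 58 bp. At the places ranked 4 to 8 by geometric mean fold enrichment they spanned 15 to 37 bp, so a narrow span is not particular to this place.

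In the RefSeq promoter table of GRCh38.p14 the SNX5 and MGME1 starts are 224 bp apart, and in GENCODE release 44 of the same genome they are 38 bp apart. The stretch between them, chr20:17968795-17969017 on the plus strand (SNX5 is read toward the left and MGME1 toward the right), is shown because both genes share it. Capitals mark TGACGTCA, the cAMP response element known to be bound by CREB and ATF proteins:
SNX5-MGME1: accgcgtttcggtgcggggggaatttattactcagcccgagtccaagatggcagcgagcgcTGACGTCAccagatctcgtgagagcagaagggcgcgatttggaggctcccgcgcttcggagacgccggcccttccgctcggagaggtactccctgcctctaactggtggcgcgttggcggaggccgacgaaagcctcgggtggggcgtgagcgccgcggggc
Neither CACGTG nor CACGCG, read on both strands, occurs in the 300 bases of the promoter table for either gene. The bases under the summit could not be read, because the sequence available here is of another build than the peaks. The searched bases run from 250 before to 50 after each start, and the summits lay about 300 bp from the approximate hg19 position. The searched and printed bases may therefore not reach the summits.

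The place at CCDC47 and DDX42 ran from 61850641 to 61851822 on chromosome 17. Fold enrichment was 58.4, 41.7 and 49.8 in replicates 1, 2 and 3 (mean 49.96 ± 8.37, SD, n = 3). It was the highest value of the list in replicate 1 and the second highest in replicates 2 and 3. The summit held 707, 354 and 352 fragments (exact Poisson 95% intervals 656 to 761, 318 to 393 and 316 to 391). Replicates 2 and 3 thus held nearly equal numbers of fragments, while the deeper replicate 1 held more.

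CCDC47 and DDX42 are also read away from each other, from hg19 starts at 61850939 and 61851516 that lie 577 bp apart. The peak covered both starts in 3 of 3 replicates. Summits lay 270, 284 and 283 bp upstream of the CCDC47 start (mean 279 ± 7.81, SD, n = 3) and 307, 293 and 294 bp upstream of the DDX42 start (mean 298 ± 7.81, SD, n = 3). The mean summit was 9.5 bp from the midpoint of both starts. The MYC summits therefore lay near the middle between these starts, and no other peak was called in the window. In GENCODE the longest models of both genes overlap by 2749 bp, so other transcripts may start elsewhere.

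The promoters of both genes are shown as the 250 bases before each RefSeq start (GRCh38.p14), 5′ to 3′ in the direction of the gene. CCDC47 is on the minus strand at chr17:63773598-63773847 and DDX42 on the plus strand at chr17:63773920-63774169. Capitals mark TGACGTCA in CCDC47, and in DDX42 the hexamer CAACTG, which fits the degenerate E-box CANNTG:
CCDC47: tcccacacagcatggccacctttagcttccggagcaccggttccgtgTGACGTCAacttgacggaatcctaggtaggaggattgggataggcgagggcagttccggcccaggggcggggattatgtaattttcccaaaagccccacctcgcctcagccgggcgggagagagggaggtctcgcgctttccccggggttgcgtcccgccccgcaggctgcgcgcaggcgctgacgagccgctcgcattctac
DDX42: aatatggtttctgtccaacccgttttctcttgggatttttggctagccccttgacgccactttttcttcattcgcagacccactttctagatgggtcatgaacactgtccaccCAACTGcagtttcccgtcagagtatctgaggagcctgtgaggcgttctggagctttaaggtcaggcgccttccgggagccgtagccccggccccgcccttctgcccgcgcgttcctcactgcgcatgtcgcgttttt
In this build the starts are 573 bp apart, and 72 bases between the 2 table entries, which include the middle of the stretch, are in neither entry. The printed bases therefore do not reach the distance from the starts at which the summits lay.

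The place upstream of FOXK1 ran from 4681033 to 4682213 on chromosome 7. Fold enrichment was 55.6, 40.8 and 48.0 (mean 48.1 ± 7.38, SD, n = 3), from 550, 291 and 314 fragments at the summit (exact Poisson 95% intervals 505 to 598, 259 to 326 and 280 to 351). As at CCDC47 and DDX42, replicate 1 had the highest fold enrichment and replicate 2 the lowest. Summits lay 40183, 40201 and 40183 bp upstream of the FOXK1 start at 4721930 (mean 40189 ± 10.4, SD, n = 3). Unlike the other 2 places, this one did not reach the start of its member gene.

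A separate and much weaker place lay at the FOXK1 start itself, from 4721554 to 4721857. Its fold enrichment was 6.07, 6.29 and 8.35 (mean 6.91 ± 1.26, SD, n = 3) on 57, 43 and 50 fragments. The distal place was 9.15, 6.49 and 5.75 times as strong in fold enrichment (mean 7.13 ± 1.79, SD, n = 3), and the values of both places did not overlap. This is a description, since the distal place was chosen by its fold enrichment. Among places found in 3 replicates the one at the start ranked 3768 of 12499, above the list median in each replicate. The peaks were narrow, at 304, 296 and 295 bp, and ended 73 bp or more before the start.

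The FOXK1 promoter was the only one of the 5 with CACGTG. Its 250 bases before the start on the plus strand of GRCh38.p14, chr7:4682045-4682294, are shown with the E-box in capitals:
FOXK1: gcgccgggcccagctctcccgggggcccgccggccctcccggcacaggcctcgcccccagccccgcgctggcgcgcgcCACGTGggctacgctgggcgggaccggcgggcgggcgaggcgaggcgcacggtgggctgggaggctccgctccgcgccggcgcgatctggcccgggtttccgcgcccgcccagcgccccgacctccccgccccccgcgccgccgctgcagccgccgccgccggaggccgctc
The E-box covers the bases 172 to 167 before the start. In hg19 the summits of the place at the start were 170, 215 and 192 bp upstream (mean 192 ± 22.5, SD, n = 3). The hexamer thus lies at the distance of the summit of replicate 1, and nearer the start than the summits of the other replicates. This holds if the start is the same base in both builds, which was not tested. Over all 35116 promoters of the table, 7.26% held CACGTG within 300 bases, so 1 of 5 members is a description only.

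Motifs were searched on both strands of these 300 bases. CACGCG was in none of the 5 promoters and in 11.4% of all. CANNTG, which includes CACGTG, was in those of FOXK1 and DDX42 and in 68.7% of all promoters. TGACGTCA was searched only after the sequences had been read. It was in the promoters of SNX5, MGME1 and CCDC47, where the first pair share the same copy, and in 1.85% of all promoters. GC content of the 250 bases was 85.6% in FOXK1, a level that 0.299% of all promoters reach, against 65.2% in SNX5, 65.6% in MGME1, 64.4% in CCDC47 and 55.6% in DDX42 and a median of 58.0% over the table. A match is a run of letters and not a measured site.

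The FOXK1 window held 2 further places. One, from 4670974 to 4671729, was found in all 3 replicates with a fold enrichment of 3.34, 3.80 and 3.83 (mean 3.66 ± 0.274, SD, n = 3) on 32, 25 and 23 fragments. These values were below the list median in each replicate. The other, from 4715598 to 4715925, was called in replicate 2 alone, with a fold enrichment of 2.69 on 19 fragments. No peak was called there in the other lists, which does not show that it was absent. One of these, replicate 1, is deeper than replicate 2 (genome-wide level 7.79 against 5.84).

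Toward MGME1 the chromosome 20 window held 2 weak places. The place from 17954017 to 17954519 had a fold enrichment of 2.48 in replicate 1 and 4.01 in replicate 3, on 51 and 36 fragments. The place from 17952189 to 17952686 was called only in replicate 3, at 2.38 on 29 fragments. The weak places of both windows lay at or below 4.01 and the 3 strongest at or above 40.8, with the place at the FOXK1 start in between.

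**Figure D1:**
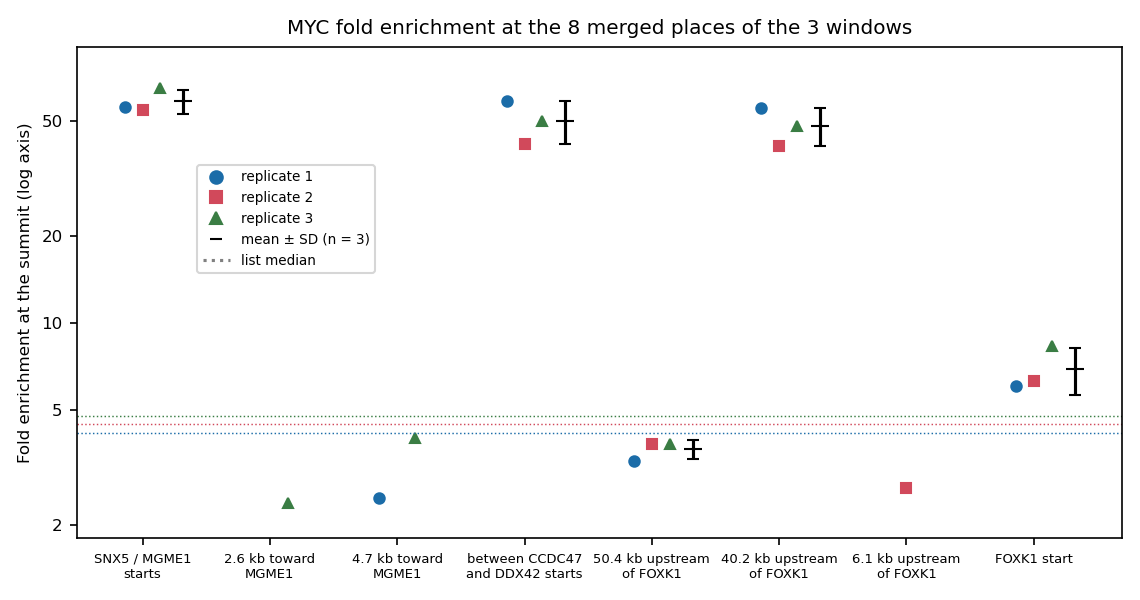
Fold enrichment at the summit (log axis) of each replicate at the 8 merged places, with the mean and SD where all 3 replicates had a peak, and dotted lines at the median of each list. The 3 strongest places lie between 40.8 and 64.9, the place at the FOXK1 start between 6.07 and 8.35, and the other 4 below the list medians.

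The distal place near FOXK1 was also set beside the gene annotation. In GENCODE release 44, which is of hg38, the next gene start upstream of FOXK1 is that of ENSG00000286874, a 323 bp long non-coding RNA gene on the same strand, 40047 bp before the FOXK1 start. The summits in hg19 were 40183 to 40201 bp before it. These distances come from different builds and no position was carried between them, so whether the summits lie at the start of this RNA was not tested. The gene start after it on that side is 170262 bp from FOXK1, that of the pseudogene CYP3A54P.

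How the 3 places order among themselves was then compared within each replicate. The fold enrichment at SNX5 and MGME1 was 0.958, 1.31 and 1.30 times that at CCDC47 and DDX42, so it was lower in replicate 1 and higher in the others. Relative to the place upstream of FOXK1 it was 1.01, 1.34 and 1.35. CCDC47 and DDX42 had 1.05, 1.02 and 1.04 times the fold enrichment upstream of FOXK1, a mean of 1.04 ± 0.0151 (SD, n = 3). Without the added 1, this last ratio was 1.03, 0.996 and 1.02, so the order was not the same in each replicate. That of SNX5 and MGME1 to the place upstream of FOXK1 was then 0.952, 1.26 and 1.28. Their ratio to CCDC47 and DDX42 was 0.924, 1.26 and 1.25, with the same order as before. The places were chosen by these values, so their order is given with no test.

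In fragments the order was the same in 3 of 3 replicates. SNX5 and MGME1 held 1.66, 1.89 and 1.83 times the fragments of CCDC47 and DDX42, which in turn held 1.29, 1.22 and 1.12 times those of the place upstream of FOXK1. The background differed between the places and divides the fragments in fold enrichment. At SNX5 and MGME1 the local background was 2.56, 1.93 and 1.88 times the genome-wide level of the list. It was 1.43, 1.29 and 1.28 times that level at CCDC47 and DDX42, and 1.14, 1.05 and 1.17 times upstream of FOXK1.

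The background at 2 of the places was close to that of their chromosomes. Median relative background over all peaks was 2.07, 1.90 and 1.89 on chromosome 20 and 1.42, 1.27 and 1.29 on chromosome 17. At SNX5 and MGME1 replicate 1 stood above this median by more than the other replicates. On chromosome 7 the median was 1.59, 1.45 and 1.49, and the place upstream of FOXK1 was below it in each replicate. The part of copy number or of the control in these values was not tested.

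**Figure D2:**
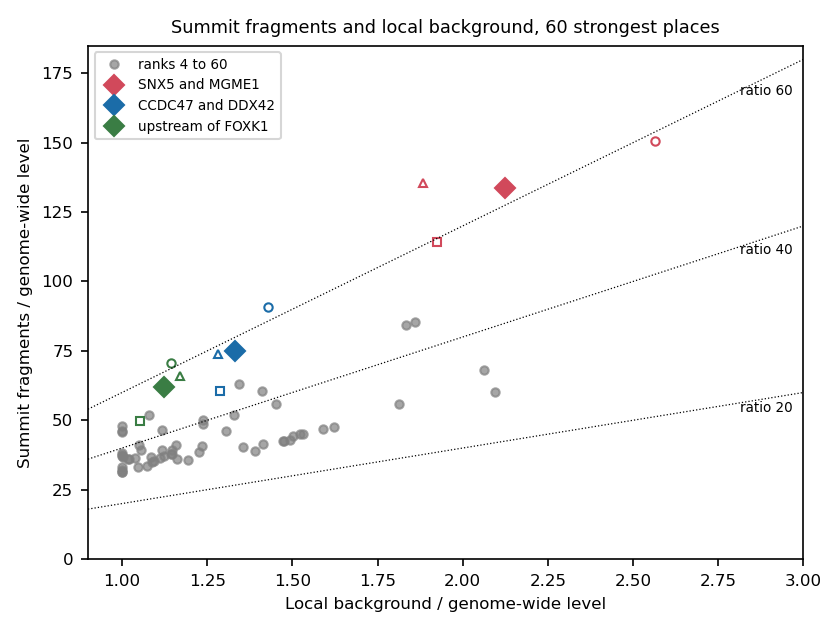
Summit fragments against local background, both in units of each replicate's genome-wide level, for the 60 strongest places. Diamonds are means of the 3 member places, open circles, squares and triangles their replicates 1, 2 and 3, grey points the means of ranks 4 to 60, and dotted lines join equal ratios of fragments to local background. SNX5 and MGME1 stand highest on the y axis, at 114 to 151, and also far to the right.

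Measured against the genome-wide level, the summit stood 151, 114 and 136 times above it at SNX5 and MGME1, 90.8, 60.6 and 74.0 times at CCDC47 and DDX42, and 70.6, 49.8 and 66.0 times upstream of FOXK1. By this measure SNX5 and MGME1 stayed at rank 1, while CCDC47 and DDX42 moved from rank 2 to 4 and the place upstream of FOXK1 from rank 3 to 7. Ranked by p-value they were at 1, 4 and 5. CCDC47 with DDX42 and the place upstream of FOXK1 were thus among the 3 strongest by fold enrichment, and not by these 2 measures.

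Just inside the choice, the place upstream of FOXK1 had a geometric mean fold enrichment of 47.8. Just outside it, chr7:99697890-99699975 had 42.4, with fold enrichments of 38.9, 40.7 and 48.2. In replicate 3 this place was above the one upstream of FOXK1, and in replicate 2 they were 40.7 and 40.8. Ranks 4 to 8 had geometric means from 40.8 to 42.4, a narrower span than that from rank 3 to rank 4. The order within replicates 2 and 3 nevertheless left rank 3 and rank 4 nearly level.

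**Figure D3:**
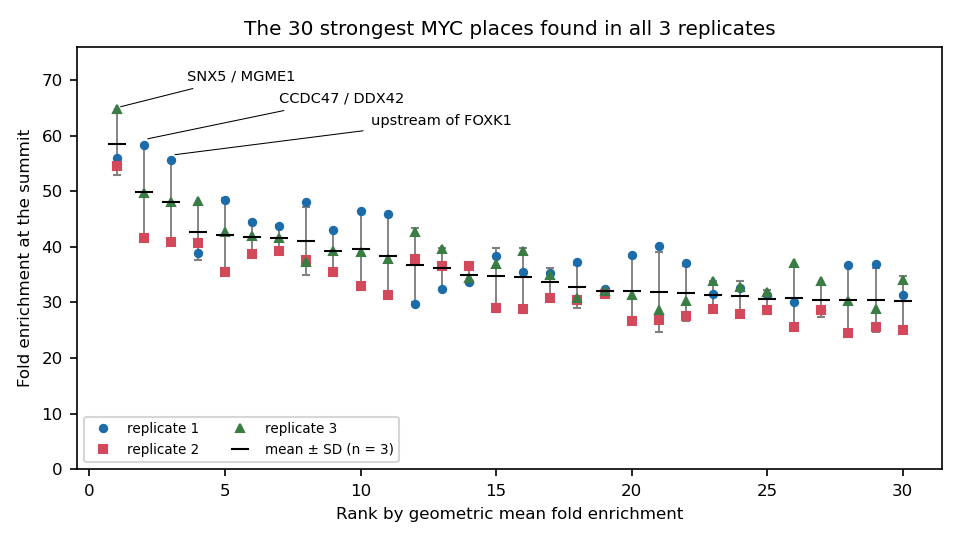
Fold enrichment of each replicate and mean ± SD (n = 3) of the 30 strongest places found in all 3 replicates, by rank of the geometric mean. SNX5 and MGME1 lead with a mean of 58.5, and the SD bars of ranks 2 and 3 overlap those of ranks 4 to 8.

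Relative to replicate 2, replicate 1 was higher at CCDC47 and DDX42 and upstream of FOXK1 than at most places. Its fold enrichment was 1.40 and 1.36 times that of replicate 2, against a median of 1.14 over the places found in 3 replicates, and 81.3% and 77.2% of places had a ratio no higher. At SNX5 and MGME1 the ratio was 1.02, which 33.3% of places did not exceed. All 3 ratios lay within the central range of places, whose 5th and 95th percentiles were 0.742 and 1.67. Relative to replicate 3 the ratios were nearer the median of 1.05 at CCDC47 and DDX42 (1.17) and upstream of FOXK1 (1.16). There 67.3% and 65.1% of places had a ratio no higher. At SNX5 and MGME1 this ratio was 0.863, which 21.6% of places did not exceed.

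Width is a property that the choice did not use directly, although width and fold enrichment come from the same peaks. The merged place at SNX5 and MGME1 was 2391 bp wide, which 117 of the 12499 places (0.936%) reached. CCDC47 and DDX42 with 1182 bp and the place upstream of FOXK1 with 1181 bp were both reached by 21.1%, against a median of 792 bp. The places of ranks 4 to 8 ranged from 1105 to 2086 bp. Peaks in single replicates measured 2391, 1893 and 1833 bp at SNX5 and MGME1, 1173, 1159 and 953 bp at CCDC47 and DDX42, and 1150, 1051 and 998 bp upstream of FOXK1. The peak at SNX5 and MGME1 was the widest of the 3 in every replicate.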

How the data were processed

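ChIP-seq of MYC and normal IgG was carried out by the authors in ONS76 cells. They mapped reads with Bowtie2 (hg19) and called peaks per library by MACS2, q-value 0.05. Not given in the sources used here: versions, duplicate handling and the MACS2 control. The deposited lists hold fold enrichment, a ratio over the local background, −log10 p-values and −log10 q-values, and a score that is 10 times the −log10 q-value cut to a whole number. Immunoprecipitations from the same chromatin batch were combined. Whether the replicates come from separate batches or cultures is not stated, so the SD may hold technical spread only. Fragments and background were recovered from fold and p-value, with a whole number found within 0.001 for 100% of peaks, and checked on 2000 simulated peaks (Python 3.11.15, scipy 1.17.1). Peaks overlapping by 1 bp were merged, and places in at least 2 replicates were called consensus. Replicates are given as mean ± SD, with no test. The windows, gene starts, members and the motif lists were chosen with earlier results of these data known. The named genes are the 5 members. ENSG00000286874 and CYP3A54P are named as well, as the next gene starts upstream of FOXK1 in the reference, and were chosen after values were seen. The reference is hg38 (715 peaks on 13 chromosomes lie past its ends), so promoters came from RefSeq, where 5 of 5 members matched, and no position was converted. Alternatives were other measures, overlaps, q-values and replicates.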

Additional observations from a re-analysis of the deposited data

How the results depend on the processing

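Of 63 alternative values, 47 differed from those reported by less than the spread between replicates or, for counts, by less than 1.5 times. Over the genome-wide level, mean fold enrichment was 134 at SNX5 and MGME1, 75.1 at CCDC47 and DDX42 and 62.2 upstream of FOXK1, because the local background is then left out. Ranks of the last 2 were 4 and 5 by p-value and 4 and 7 over the genome-wide level. Without replicate 1 the place upstream of FOXK1 was rank 4, and leaving out a replicate gave ranks 3 to 4. The 19 peaks in the windows became 12 without replicate 3 and 13 without either of the others. For SNX5 and MGME1, distances were taken from 1 shared approximate position. Taking the peak midpoint in place of the summit put them at -93.3 bp for SNX5 and 93.3 bp for MGME1, against 300 and -300 bp (negative is upstream). The side of that position thus depends on this choice, and the side of each true start is not settled. Midpoints lay at -265 bp for CCDC47, -312 bp for DDX42, and -40306, -225 and -50567 bp for the 3 FOXK1 places, against -279, -298, -40189, -192 and -50444 bp. No paired test was run, because no groups were compared and only MYC libraries have peak lists here. Ratios between places were taken within each replicate and are a description. The weak places rest on 19 to 51 fragments, and whether depth limits their calls was not tested.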

Other observations

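Consensus places within 100 kb numbered 4 at each of the 3 strongest places, and 43.1% of all consensus places had at least as many. At the FOXK1 start, summit fragments were 7.32, 7.36 and 10.5 times the genome-wide level in replicates 1, 2 and 3. The ratio of replicate 1 to replicate 3 was 0.696, and 2.28% of the places found in 3 replicates had a ratio as low, while for the strong place upstream it was 1.07. This comparison was chosen after the values were seen, and with 43 to 57 fragments per summit the counting intervals are wide (31.1 to 57.9 for the lowest count). The cause was not tested.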
